A study of Mus musculus with 2 samples.

Results

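Pyramidal neurons of hippocampal field CA1 were examined in single-nucleus RNA sequencing (snRNA-seq) of the adult mouse hippocampus, in which 149 of 905 nuclei with at least 5000 UMIs met a rule for CA1 genes. A UMI, or unique molecular identifier, marks a single captured RNA molecule. A nucleus was taken as CA1 if it held at least 5000 UMIs, under 5% of them from mitochondrial genes, at least 1 UMI for at least 4 of the 6 genes Fibcd1, Mpped1, Wfs1, Spink8, Man1a and Pou3f1, at most 1 UMI summed over C1ql2 and Dsp, and at most 1 summed over Gad1 and Gad2. C1ql2 and Dsp mark dentate granule neurons, and Gad1 and Gad2 make the inhibitory transmitter GABA. The members were therefore chosen by measured values, and the levels of these 10 genes are given as a description. The 149 nuclei made up 16.5% of the deep nuclei (95% exact binomial interval 14.1 to 19.0%). Intervals throughout are exact, cover counting error only and say nothing of variation between animals or sections.

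The nuclei came from 1 coronal section of 20 μm of fresh-frozen, untreated brain, taken from a male mouse of the inbred strain C57BL/6J at 56 days of age, and were tagged in the section with DNA barcodes released from beads of known position (Slide-tags). The labels give the tissue as brain and the sample as hippocampus, and the section also held neurons of the overlying cortex and the thalamus. There was 1 library and 1 section, so there is no replicate, no test was made, and differences between neuron classes are descriptions of this library. All the neuron classes compared here come from the same section, mouse and library, and neither genotype nor treatment separates them.

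CA1 is the last relay of the trisynaptic circuit, in which dentate granule neurons project to CA3 and CA3 pyramidal neurons project to CA1. CA1 pyramidal neurons are glutamatergic, receive CA3 axons on their proximal dendrites and entorhinal axons on their distal tufts, and send the output of the hippocampus to the subiculum and beyond. They are a standard model of synaptic plasticity that depends on NMDA receptors, and their dendrites carry graded A-type potassium and HCN channels.

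The 149 nuclei held 3003107 UMIs, with a median of 19536 (range 5121 to 51250) and a median of 5304 genes. The library held 1661 barcodes, 15414627 UMIs and 32285 genes, and 906 barcodes reached 5000 UMIs, of which 1 was set aside for mitochondrial UMIs. One barcode was shared with the 9037 barcodes of the embryonic library of the same series, and it was not a CA1 nucleus. Of 22 nuclei marked as likely doublets, 1 was a CA1 nucleus, and doublets were kept. The median CA1 nucleus had 0.0435% mitochondrial UMIs and 6.40% of its UMIs on the nuclear RNA Malat1, against 3.13 to 9.22% on Malat1 in the other neuron classes.

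Most members lay well above the limit on UMIs, while the number of rule genes had no gap at its limit. Among nuclei that met the rest of the rule, 46 carried all 6 genes, 58 carried 5 and 45 carried 4, while 26 carried 3, 41 carried 2, 119 carried 1 and 204 carried none. The 2 conditions on excluded genes removed 4 of 153 nuclei, 2 for each condition. In all, 145 members had no UMI of C1ql2 or Dsp, and 142 had none of Gad1 or Gad2. One member held between 5000 and 6000 UMIs, 2 barcodes with 4000 to 5000 UMIs met the rest of the rule, and 140 members held at least 10000 UMIs.

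**Figure D1:**
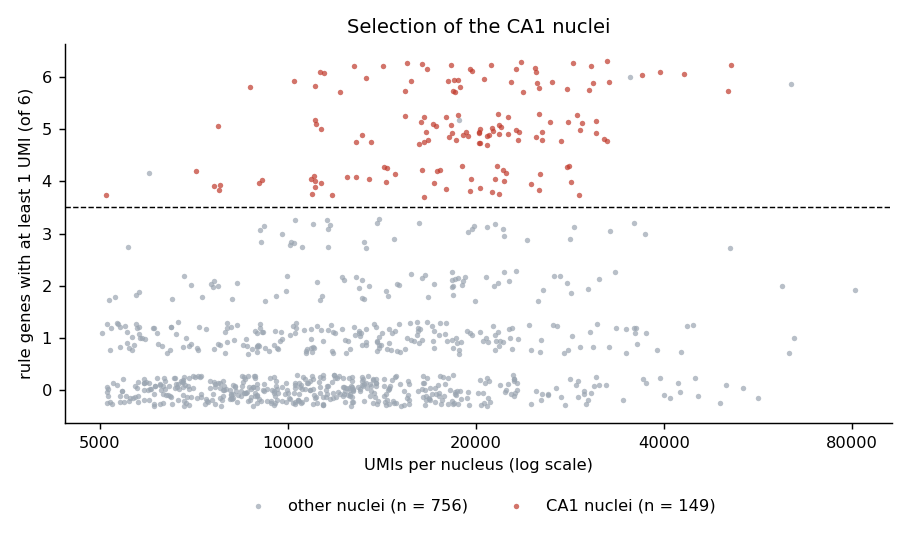
Each point is 1 of the 905 nuclei with at least 5000 UMIs, placed by its UMIs (x axis, log scale) and by how many of the 6 rule genes had a UMI (y axis, spread slightly for legibility). Red points are the 149 CA1 nuclei and grey points the 756 others; the dashed line is the limit of 4 genes, and the few grey points above it were removed by the conditions on C1ql2, Dsp, Gad1 and Gad2.

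Genes that the rule did not use were higher in nuclei with more rule genes. Gm2164, a long non-coding RNA transcribed opposite to Pou3f1, had 11 CPM in nuclei with none of the 6 genes, where CPM is the UMIs of a gene per 1000000 UMIs summed over the nuclei. It had 19.6 CPM with 1 gene, 82.8 with 2, 541 with 3, 631 with 4, 761 with 5 and 627 with 6. The largest step lay between 2 and 3 genes, below the limit of the rule. The muscarinic receptor gene Chrm3 likewise had 753 CPM with 2 genes, 1669.8 with 3 and 1601 with 4. Of the 26 nuclei with 3 genes, 19 lay in clusters that carried CA1 genes, which were named from the same 6 genes.

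Clustering of all 1609 nuclei with under 5% mitochondrial UMIs gave 17 clusters, named from marker lists. The CA1 list was the same 6 rule genes, so a cluster name of CA1 is no independent check of the members. Of the 149 members, 145 lay in clusters named CA1-like. Those clusters held 175 deep nuclei, so 30 were not members, 26 for having fewer than 4 genes and 4 for the excluded genes. The 30 nuclei had a median of 13958 UMIs against 19536. They carried Gm2164 at 645 CPM (95% interval 579 to 716) against 682 (653 to 712) in the members, and Neurod6, a bHLH transcription factor of pyramidal neurons, at 208 CPM (171 to 250.4) against 225 (209 to 243).

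Another 4 members lay in other clusters, 3 in astrocyte-like and 1 in endothelial-like clusters. They held 7772, 9078, 11313 and 7123 UMIs and exactly 4 rule genes each. The 3 in astrocyte-like clusters held 149, 147 and 202 UMIs of the 8 astrocyte genes, and the one in the endothelial-like cluster held 67 UMIs of the 8 endothelial or mural genes and 41 of the astrocyte genes. None of the 4 was marked as a doublet. They are members by the rule, and results that rest on them are also given without them.

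The CA1 nuclei were then described by marker lists of other cell types. The other classes were clusters named from these same lists, so their high sums follow from the naming. The rule also limited C1ql2, Dsp, Gad1 and Gad2, so the dentate granule and inhibitory sums in CA1 are not independent of it. The 6 CA1 genes and C1ql2, Dsp, Gad1 and Gad2 were used by the rule, so their sums follow from the selection and check nothing. The 6 CA1 genes had a summed 1027 CPM (991 to 1063) in the CA1 nuclei against 23.5 in dentate granule, 129 in CA3, 246 in cortical excitatory, 13.3 in thalamic and 171 in inhibitory nuclei. Of the 8 inhibitory genes, 6 were found, at a summed 8.66 CPM against 11505 CPM in inhibitory nuclei, with Dlx1 and Nxph1 at 0, and the 6 not used by the rule summed to 6.33 against 10231 CPM. The 8 dentate granule genes summed to 105 CPM against 2198 in dentate granule nuclei, the 6 not used by the rule to 104 against 1968, and their defining gene Prox1 had 8 UMIs. Most of the sum in CA1 came from Calb1 (33.0 CPM), Trpc6 (32.6) and Lct (30.0), against 182, 340 and 65.1 in dentate granule nuclei. These were found in 34.9%, 32.2% and 33.6% of CA1 nuclei. The 8 CA3 genes summed to 198 CPM against 3129 in CA3 nuclei, with Iyd at 0, and the 8 thalamic genes to 107 CPM against 7407, with Zic1 and Gbx2 at 0. The 8 cortical excitatory genes summed to 102 CPM, against 1163 in cortical excitatory nuclei. That list was also at 1157 CPM in thalamic, 802 in inhibitory and 1755 in astrocyte nuclei, so it did not set its class apart. The cortical excitatory cluster was named on 4 of these 8 genes.

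No deep cluster was named CA2 or subiculum, which border CA1. The CA2 list summed to 73.9 CPM in the CA1 nuclei, of which Fam81a gave 39.6, while Amigo2 had 1 UMI and Necab2 had 2. Rgs14, a signalling scaffold known for CA2, gave 15.7 CPM and was found in 24.2% of CA1 nuclei. Its next neuron class was cortical excitatory, at 14.7 CPM. With no CA2 class, the list has no reference level, and whether some members are CA2 nuclei was not tested. The subiculum list summed to 76.3 CPM, mostly from Bcl6 and Ntng2, while Fn1, Nts and Gpr101 had 1 UMI each and Dlk1 had none.

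Glial genes were low. The oligodendrocyte list summed to 109 CPM against 21226 in oligodendrocytes. The oligodendrocyte precursor list summed to 507 CPM, of which 474 were the matrix glycoprotein gene Tnr, while Pdgfra and Cspg4 were at 0. Microglial genes summed to 160.5 CPM, with 107 from P2ry12, and stood between 138 and 215 CPM in each of the other neuron classes. Astrocyte genes summed to 271 CPM over all members and to 92.7 CPM without the 4 outside the CA1 clusters, and endothelial or mural genes to 27.3 and 4.72 CPM. The median member held 1 astrocyte UMI and no endothelial UMI. Ependymal or choroid genes summed to 23.6 CPM, of which Kl gave 22.0, with Foxj1, Folr1, Ccdc153 and Tmem212 at 0. Kl was found in 30.9% of CA1 nuclei and was at 8.67 CPM in dentate granule nuclei, the next neuron class. Cajal-Retzius genes summed to 25.0 CPM, of which Diaph3 gave 20.6, with Lhx1, Lhx5 and Ebf3 at 0. Diaph3 was found in 27.5% of CA1 nuclei, and its next neuron class was dentate granule, at 6.37 CPM. Most of each sum was therefore 1 gene that was higher in CA1 than in the other neuron classes.

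The 6 rule genes differed in how closely they marked CA1. Per-nucleus values are given as UMIs per 10000 UMIs of the nucleus (CP10K), with the lowest, the median and the highest nucleus. To compare shares of nuclei with a UMI across depths, each nucleus was also thinned to 5000 UMIs, since the median dentate granule nucleus held 11741 UMIs and the median CA3 nucleus 18913.

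Man1a, a Golgi mannosidase that trims N-glycans, ran from 0 through 4.51 to 14.5 CP10K and was found in 94.6% of CA1 nuclei, or 79.9% after thinning. Thinned shares were 0.739% in dentate granule and 36.4% in CA3 nuclei, where its level was 113 CPM against 511 in CA1. Man1a was found in CA3 too, at 4.50-fold less (3.60 to 5.70). Outside neurons Man1a was at 283 CPM in oligodendrocytes. Mpped1, a metallophosphoesterase gene, ran from 0 through 1.81 to 7.02 CP10K and was found in 96.0% of nuclei, 62.4% after thinning against 0.493% in dentate granule and 0 of 33 nuclei in CA3, where the exact upper limit for nuclei with a UMI at the thinned depth was 10.6%. Its level in cortical excitatory nuclei was 200.1 CPM, against 191 in CA1 (ratio 0.953, 0.766 to 1.20), and in inhibitory nuclei 106 CPM. Mpped1 therefore set CA1 apart inside the hippocampus and not from the cortical nuclei of this section.

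Pou3f1, a POU-domain transcription factor, ran from 0 through 0.922 to 6.89 CP10K, in 87.9% of nuclei and in 51.0% after thinning against 3.69% of dentate granule nuclei. Its level of 111 CPM (99.6 to 124) was 20.3 times that of the next neuron class, dentate granule (14 to 30.3). Outside neurons Pou3f1 was at 54.3 CPM in oligodendrocytes, 56.5 in oligodendrocyte precursors and 24.1 in astrocytes. Fibcd1, a membrane receptor with a fibrinogen domain, ran from 0 through 0.465 to 5.86 CP10K and had the smallest share of nuclei among the 6, 65.8%, or 28.2% after thinning against 1.97% in dentate granule nuclei. No UMI of Fibcd1 was found in CA3, cortical excitatory or thalamic nuclei. Spink8, a Kazal-type protease inhibitor, had a median of 0.762 CP10K and a highest value of 4.42, and its 82.2 CPM were 8.96 times the level in inhibitory nuclei (3.79 to 27.8). Wfs1, an endoplasmic reticulum membrane protein mutated in Wolfram syndrome, had a median of 0.704 and a highest value of 3.94 CP10K, and its 76.3 CPM were 6.05 times the level in CA3 (3.13 to 13.4).

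**Figure D2:**
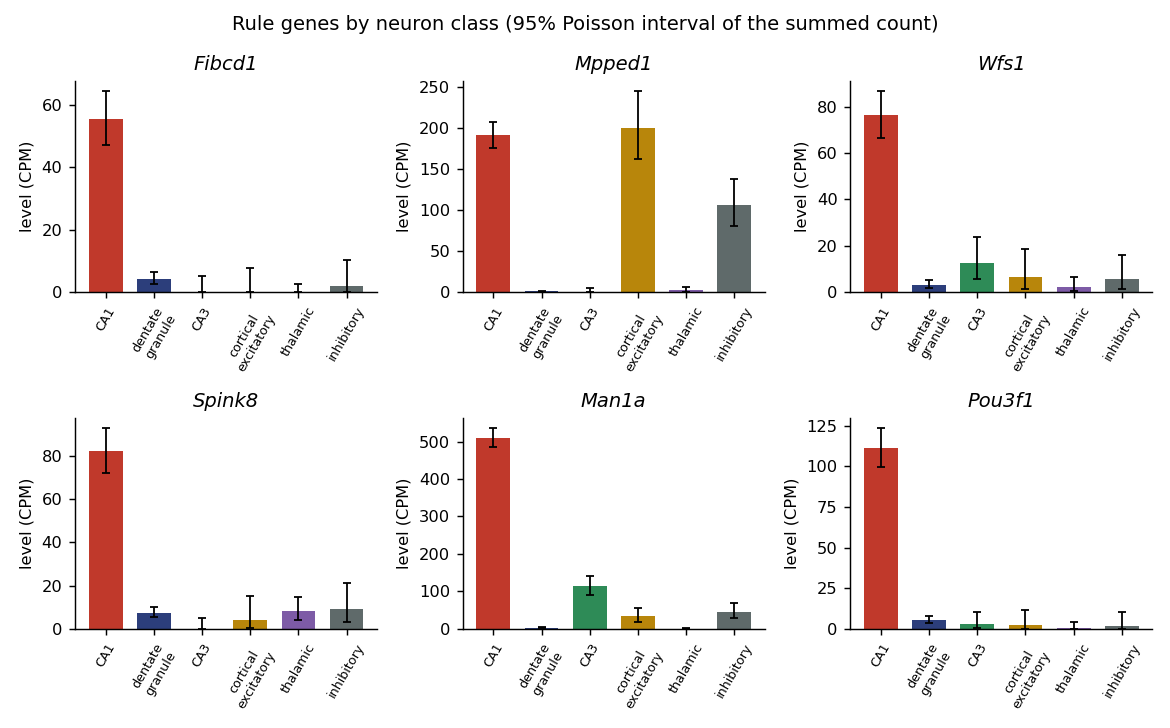
Each panel is 1 of the 6 rule genes, bars are its level in CPM over the summed nuclei of each of 6 neuron classes, starting at 0, and error bars are 95% Poisson intervals of the count, which cover counting error only. Among these neuron classes Fibcd1, Wfs1, Spink8 and Pou3f1 stand out in CA1 alone. Man1a is also at 113 CPM in CA3, and Mpped1 is as high in cortical excitatory nuclei (200.1 CPM) as in CA1 (191 CPM).

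The 250 bases before the annotated starts of 4 genes of CA1 are shown to give the sequence context of rule genes (Fibcd1 and Mpped1) and of genes outside the rule that were more than 2 times higher in CA1 than in each other class (Stac and Pou3f3). They are RefSeq sequences of build GRCm38.p6, written 5′ to 3′ along the gene, and overlap no exon of GENCODE vM21. For Mpped1 the window is that of the second of its annotated starts, downstream of the first. Capitals mark each E-box, CANNTG, the 6-base motif of bHLH factors such as the NeuroD family, and windows without capitals hold none.
Fibcd1 (GRCm38.p6, minus strand, chr2:31846006-31846255): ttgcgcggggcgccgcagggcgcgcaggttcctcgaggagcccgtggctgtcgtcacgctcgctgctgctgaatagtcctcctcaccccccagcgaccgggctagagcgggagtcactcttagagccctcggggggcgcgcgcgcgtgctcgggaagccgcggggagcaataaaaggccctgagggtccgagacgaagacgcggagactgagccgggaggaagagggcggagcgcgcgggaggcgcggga
Mpped1 (GRCm38.p6, plus strand, chr15:83784579-83784828): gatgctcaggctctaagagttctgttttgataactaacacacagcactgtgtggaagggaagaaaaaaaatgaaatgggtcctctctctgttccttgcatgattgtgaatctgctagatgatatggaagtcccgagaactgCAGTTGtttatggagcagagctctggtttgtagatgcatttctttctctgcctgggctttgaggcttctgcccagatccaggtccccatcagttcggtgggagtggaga
Stac (GRCm38.p6, minus strand, chr9:111690349-111690598): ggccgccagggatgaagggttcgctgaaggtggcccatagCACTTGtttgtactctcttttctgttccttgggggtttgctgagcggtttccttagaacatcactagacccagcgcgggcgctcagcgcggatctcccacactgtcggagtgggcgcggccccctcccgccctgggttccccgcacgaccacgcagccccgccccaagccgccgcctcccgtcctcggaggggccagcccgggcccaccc
Pou3f3 (GRCm38.p6, plus strand, chr1:42695518-42695767): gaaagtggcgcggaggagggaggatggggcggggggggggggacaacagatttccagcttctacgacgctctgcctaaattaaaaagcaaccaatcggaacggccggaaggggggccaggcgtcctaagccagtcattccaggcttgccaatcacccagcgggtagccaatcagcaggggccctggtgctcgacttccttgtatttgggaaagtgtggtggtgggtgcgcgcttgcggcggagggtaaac
The Fibcd1 window was 71.6% G or C, the Stac window 68%, the Pou3f3 window 60.8% and the Mpped1 window 46.8%. E-boxes were found on either strand in 66.2% of all 32851 windows of this length in the RefSeq table, and in 55.7% of the 79 windows of the 64 genes, of 93 higher in CA1 than in each other class, that were matched by symbol. The E-box CAGATG, which is a form of the general motif, was found in 14.4% of all windows and in 13.9% of these. The octamer ATGCAAAT bound by POU factors was found in 1.6% of all windows and in 2.53% of these, which is 2 windows. The cAMP response element TGACGTCA was found in 1.55% of all windows and in 1.27% of these. In this set of 79, a single window is 1.27%. Pou3f1 and Spink8 were not among the matched genes.

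CA1 was then compared with 5 other neuron classes of at least 20 deep nuclei, named from the clusters: 406 dentate granule, 33 CA3, 28 cortical excitatory, 63 thalamic and 35 inhibitory nuclei. These classes held 5650713, 713957, 474703, 1358208 and 544739 UMIs, so 1 UMI weighs least in dentate granule and most in cortical excitatory nuclei. Genes were compared if they had at least 20 CPM in CA1 or in at least 1 of the 5 classes, which left 9863. Since the clusters were formed from the same genes, the differences describe the classes and do not test them. Glia were not among these classes, so the next class in what follows is the next neuron class.

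Against the mean of the 5 classes, 383 genes were 2 times or more higher in CA1, or 3.88% of the genes compared, and 1507 were at 0.5 times or less, or 15.3%. The median gene stood at a log2 ratio of -0.19. The 2 counts depend on how the 5 classes are combined, since a gene high in 1 class pulls the mean up, and against the median of the 5 classes they were 701 and 1120 with the median gene at -0.10. Against the pooled nuclei of the 5 classes, of which dentate granule is the largest, they were 426 and 831. A stricter call asked for 2 times against every class. It left 93 genes higher than in each class (0.943%) and 169 lower than in each (1.71%). Without the 4 members outside the CA1 clusters these were 94 and 202, of which 91 and 166 were shared with the first sets.

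**Figure D3:**
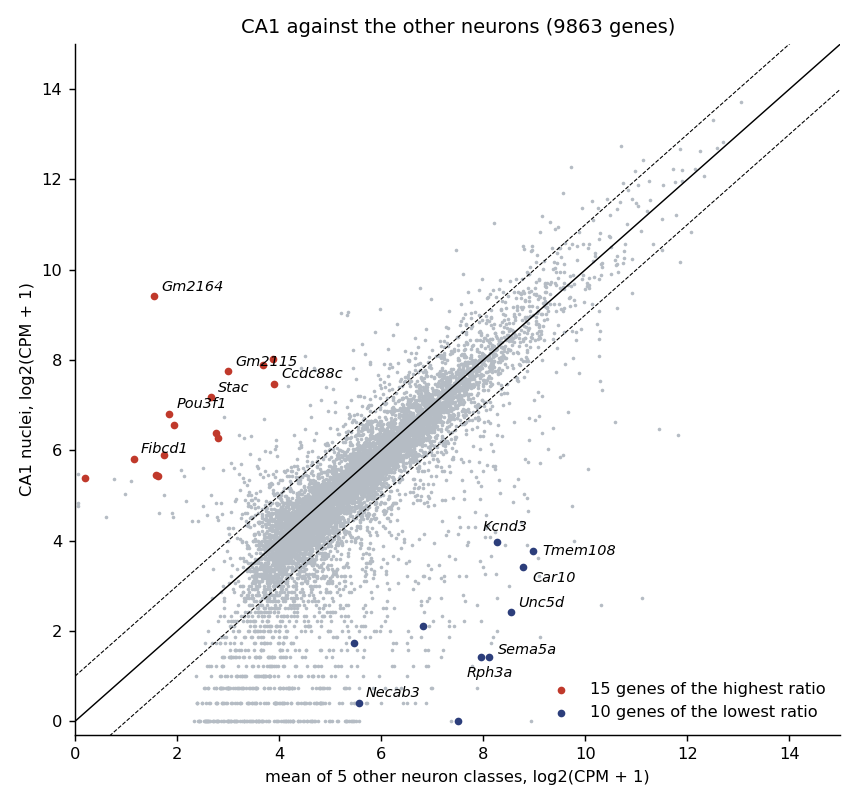
Each grey point is 1 of 9863 genes, with its level in CA1 nuclei (y axis) against the mean of the 5 other neuron classes (x axis), both as log2 of CPM plus 1. The solid line is equality and the dashed lines are 2 times higher and lower; red points are the 15 named genes highest in CA1 and blue points the 10 lowest, and Gm2164 stands farthest above the line.

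Non-coding genes were common among those that set CA1 apart. Of the 92 genes of the stricter higher set with a position in GENCODE vM21, 67 were protein coding (72.8%), against 90.3% of all genes compared, and of the lower set 141 of 168 were (83.9%). Among genes found in at least 50% of CA1 nuclei, the highest ratio to the next class was that of Gm2164 (chr4:124528924-124657169 on GRCm38, minus strand), annotated as antisense and overlapping the first 363 bases of Pou3f1 (chr4:124656807-124660655, plus strand). It ran from 0 through 6.02 to 16.6 CP10K over the 149 nuclei, and 144 nuclei carried it. Its 682 CPM (653 to 712) were 124 times the level in dentate granule nuclei (87.3 to 183), and CA3 and cortical excitatory nuclei had no UMI. After thinning it was found in 88.6% of CA1 nuclei and in 3.69% of dentate granule nuclei, and the median depths of these classes were 19536 and 11741 UMIs. 4933407E24Rik (chr4:124569190-124574645), a non-coding gene inside Gm2164 on the other strand, had 40.6 CPM, 57.4 times the next class (21.8 to 214), and no UMI in 4 of the 5 classes.

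Several of the other leading genes belong to signalling. Stac (chr9:111561437-111690348), an adaptor of voltage-gated calcium channels, ran from 0 through 1.08 to 7.25 CP10K, and its 144 CPM were 8.69 times the level in inhibitory nuclei (4.53 to 19.1). Ccdc88c (chr12:100911523-101029056), which encodes the Dishevelled-binding protein Daple of Wnt signalling, was found in 90.6% of CA1 nuclei and had 177 CPM against 29.5 in cortical excitatory nuclei, a ratio of 6.01 (3.55 to 11.1). Gpr161 (chr1:165295789-165326745), a receptor of primary cilia that restrains Hedgehog signalling, had 42.6 CPM in CA1 and at most 3.67 in the other neuron classes, a ratio of 11.6 (3.15 to 96.9). Cfap100 (chr6:90403479-90428797), named for cilia and flagella, had 42 CPM, with a ratio of 9.96 (2.70 to 83.1) to cortical excitatory nuclei. The wide intervals of the last pair come from counts of 2 UMIs in the class with the next level.

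Of the remaining leading genes, all but Gm2115 were annotated as non-coding. Gm2115, annotated as protein coding, had 215 CPM, with single nuclei from 0 through 1.57 to 15.5 CP10K. It was next highest in inhibitory nuclei, with 22.0 CPM, a ratio of 9.75 (5.54 to 19.0), and stood at 1.42 in dentate granule and 7.0 in CA3 nuclei. Outside neurons Gm2115 was at 60.2 CPM in astrocytes. Gm30382 (261 CPM) and Gm5149 (93.9 CPM) overlap on opposite strands of chromosome 3, and each had its next level in cortical excitatory nuclei, at ratios of 5.63 (3.69 to 9.04) and 7.43 (3.37 to 20.4). Gm10754 had 237 CPM and was next highest in CA3, with 42. B230110G15Rik had 58.6 CPM and was next highest in dentate granule nuclei, with 7.43. The class with the next level thus differed among these genes.

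Some of the genes higher in CA1 than in each class lay side by side. Within 100000 bases of each other lay 20 pairs, which involved 25 of the 92 genes with a position (27.2%). Among the genes lower than in each class the share was close to this, 37 of 168 (22.0%), and of all 9860 genes compared, a far denser set, 88.3% had another compared gene within that distance. Around Pou3f3 on chromosome 1 were Pantr1, which lies 925 bases from Pou3f3 on the opposite strand, Gm20646, which overlaps Pou3f3, and Pantr2, with 3884 bases between. Their levels in CA1 were 4.80, 2.95 and 2.64 times the next neuron class, against 2.33 for Pou3f3. Pantr1 was also high in astrocytes, at 254 CPM against 273 in CA1. Pex5l on chromosome 3 overlaps Gm37459 and 4930419G24Rik on the opposite strand, at ratios of 4.01, 3.57 and 4.06. Ccdc88c overlaps Gm36756 (ratio 4.23), the glypican gene Gpc5 overlaps Gm20713 (3.26 and 4.02), and the calcium channel subunit gene Cacnb2 overlaps Gm10848 (2.14 for each). Whether strand was used in counting is not given in the sources used here, so UMIs of genes that overlap on opposite strands may be shared between them.

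**Figure D4:**
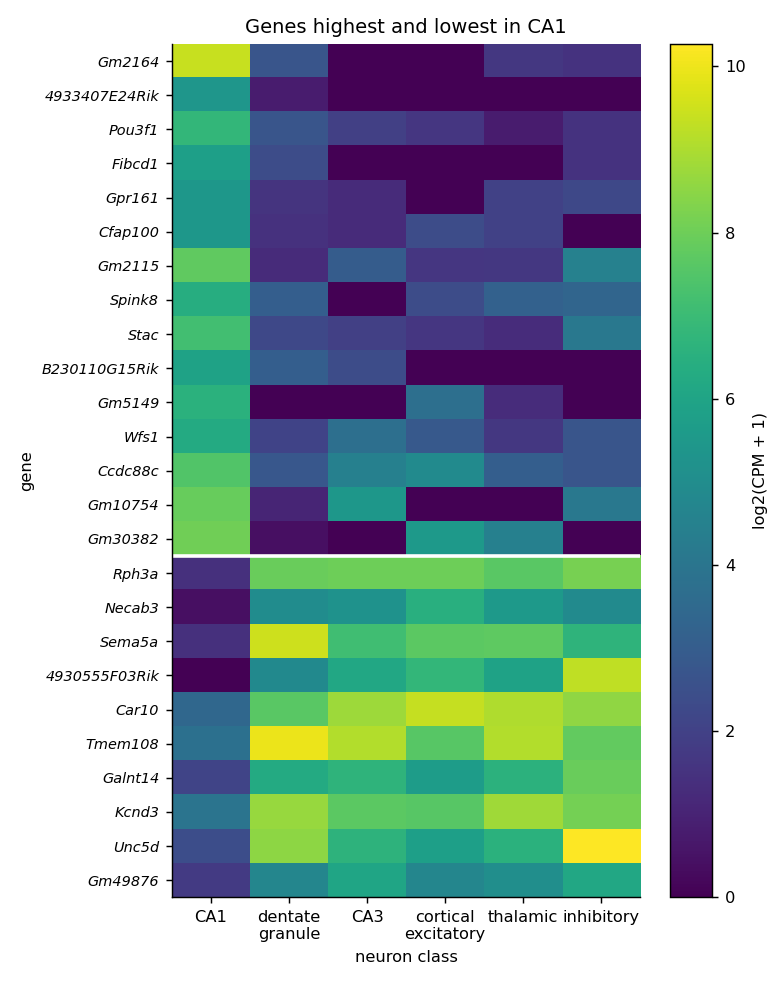
Rows are the 15 genes with the highest ratio to every other class (above the white line) and the 10 with the lowest (below it), columns are 6 neuron classes, and colour is log2 of CPM plus 1. Gm2164 is bright in CA1 alone, at 682 CPM, and the lower block is dark in CA1 and lighter in all 5 other columns.

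Among genes with at least 20 CPM in every other class, Rph3a had the lowest ratio to the other classes, with counts of 0 set to 3. It encodes rabphilin 3A, an effector of Rab3 on synaptic vesicles. It had 5 UMIs in 3003107 (1.66 CPM, 0.541 to 3.89), each in a different nucleus, against 239 CPM in dentate granule, 259 in CA3, 257 in cortical excitatory, 197 in thalamic and 288 in inhibitory nuclei. The lowest of these, thalamic, was 119 times the level in CA1 (50.2 to 368). Rph3a was found in 3.36% of CA1 nuclei as sequenced and in 0 of 149 after thinning (exact upper limit 2.45% for nuclei with a UMI at that depth), against thinned shares of 66.3% in dentate granule and 72.7% in CA3 nuclei.

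Next in order were genes of axon guidance, calcium binding and potassium current, with others of less known role. Sema5a, a semaphorin that guides axons, had 5 UMIs in CA1 against 718 CPM in dentate granule and at least 103 in every other class, 61.7 times the level in CA1 (24.9 to 198). Necab3, a neuronal calcium-binding protein, had 1 UMI in CA1, and the lowest other class was 88.2 times higher (13.7 to 3699). Kcnd3, the Kv4.3 channel of A-type potassium current, had 14.7 CPM against 409.9 in dentate granule, 204 in CA3 and 452 in thalamic nuclei, and the lowest class was 13.2 times higher (9.14 to 19.4). Its paralogue Kcnd2, the Kv4.2 channel, was at 4687 CPM and higher in CA1 than in any other class (3535 in dentate granule). Tmem108, a transmembrane protein gene, had 12.7 CPM against 1001 in dentate granule and 545 in CA3, and the lowest class was 15.5 times higher (10.5 to 23.2). The non-coding gene 4930555F03Rik had no UMI in CA1, and dentate granule nuclei were its lowest other class. It was 28.2-fold lower in CA1 than there with the CA1 count set to a floor of 3 over the group. The exact lower limit was 22.6-fold.

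For several of the lowest genes 1 nucleus held most of the CA1 UMIs. That nucleus had 36837 UMIs and all 6 rule genes, lay in a CA1 cluster and was not marked as a doublet. It held 25 of 29 UMIs of Car10, a carbonic anhydrase-related ligand of neurexins, 7 of 10 of the glycosyltransferase gene Galnt14, 6 of 7 of Gm49876, which overlaps Galnt14 on the opposite strand, and 8 of 13 of the netrin receptor gene Unc5d. It also held 242 of 264 UMIs of Dpp10, an auxiliary subunit of Kv4 channels, and 83 of 241 of the synapse organiser gene Lrrtm4. Over the other 148 members the levels were 1.35 CPM for Car10, 1.01 for Galnt14, 0.337 for Gm49876, 1.69 for Unc5d, 7.42 for Dpp10 and 53.3 for Lrrtm4. With it they were 9.66, 3.33, 2.33, 4.33, 87.9 and 80.3 CPM, so the level of these genes in nearly all CA1 nuclei was lower than the sum gives. The nucleus held 1 UMI of Rph3a and none of Sema5a.

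Against single classes, CA1 was 2 times or more higher than dentate granule for 610 of 7771 genes with at least 20 CPM on either side (7.85%) and at 0.5 times or less for 821 (10.6%). Against CA3 the counts were 689 higher (9.06%) and 636 lower (8.37%) of 7602 genes. Against cortical excitatory nuclei 757 were higher (9.18%) and 1456 lower (17.7%) of 8247. Against thalamic nuclei 1040 were higher (12.9%) and 1294 lower (16.1%) of 8049, and against inhibitory nuclei 915 were higher (10.8%) and 1424 lower (16.9%) of 8451. Small classes scatter more, so every class was also drawn down to the 474703 UMIs of the smallest and genes of at least 100 CPM were kept. The shares that differed by 2 times in either direction were then 21.9% for CA3, 26.4% for dentate granule, 32.3% for cortical excitatory, 35.7% for inhibitory and 39.2% for thalamic nuclei. CA1 was closest to CA3 and then to the dentate gyrus by this count.

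Against dentate granule nuclei the highest ratios were of genes with a few UMIs there. Tmem200a, a membrane protein gene, was found in 91.3% of CA1 nuclei at 224 CPM, 633 times its level in dentate granule nuclei (175 to 5239), and was at 51.8 CPM in CA3. Ptpru, a receptor tyrosine phosphatase gene, had 66.9 CPM, 378 times dentate granule (67.1 to 15012), 4.2 CPM in CA3 and 44.2 in cortical excitatory nuclei. The other 6 were non-coding. Of these Gm30382 had a ratio of 738 (204 to 6101) and 1700007F19Rik one of 501 (229.9 to 1368), while Gm48727, 2310002F09Rik, Gm48749 and Gm17171 stood between 596 and 653. The non-coding genes other than Gm30382 were also at 159.7 CPM (2310002F09Rik), 183 CPM (1700007F19Rik), 108 CPM (Gm17171), 79.8 CPM (Gm48727) and 146 CPM (Gm48749) in CA3. They separated CA1 from the dentate gyrus more than from CA3. Of these, 2310002F09Rik and 1700007F19Rik were at most 12.6 CPM in the remaining neuron classes. The others were higher elsewhere than in CA1. Gm48749 was at 457 CPM in thalamic nuclei against 226 in CA1, and Gm48727 at 196 against 116. Gm17171 was at 194 CPM in cortical excitatory and 112 in inhibitory nuclei against 106 in CA1.

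In the other direction were genes low in CA1, not all of them highest in dentate granule nuclei. Tafa2, a secreted chemokine-like protein, had 8 UMIs in CA1 and 1531 CPM in dentate granule nuclei, 575 times the level in CA1 (292 to 1331). Synpr, the vesicle protein synaptoporin, had 7 UMIs in CA1 and was 316 times higher in dentate granule nuclei (153 to 787), and Adarb2, of the RNA editing enzyme family, had 17 and was 328 times higher (205 to 564). Of the matrix genes, Smoc2 and Npnt had 1 UMI each in CA1 and were 424 times (75.9 to 16772) and 222 times (39.6 to 8774) higher in dentate granule nuclei. Arsj, a sulfatase gene, and Dsp, desmoplakin, also had 1 UMI each and were 215 times (38.3 to 8501) and 343 times (61.3 to 13560.2) higher, with Dsp held low by the rule. Sema5a was 431 times higher (185 to 1329). The intervals are wide because the CA1 counts are small.

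Against CA3 the highest ratio, among genes found in at least 50% of CA1 nuclei, was that of Kcnh7. Kcnh7, an ERG-type potassium channel, ran from 0 through 22.3 to 47.4 CP10K, was found in 98.0% of CA1 nuclei, and had 2335 CPM against 5.6 in CA3, 417 times (163 to 1530.0). Egfem1, an EGF-domain gene, had 1542 CPM against 7.0 in CA3, 220.2 times (94.3 to 679), and 1493 in dentate granule nuclei. Hs6st2, which sulfates heparan chains, had 141 CPM against 1 UMI in CA3, 101 times (18 to 3991), and Pantr1, next to Pou3f3, had 273 CPM against 2 UMIs, 97.5 times (26.9 to 806). Gm2164 had no UMI in CA3 and was 162-fold higher in CA1 with the CA3 count set to the floor of 3 (exact lower limit 132-fold).

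Lower in CA1 than in CA3 were Smoc2, 332 times higher in CA3 (57.9 to 13289), and Dpf3, a subunit of BAF chromatin remodelling complexes, with 4 UMIs in CA1 and 274 times higher in CA3 (106 to 1015). Tafa2 was 166 times (83.0 to 387) and Rph3a 156 times (65.5 to 485) higher in CA3. Cpne4, a calcium-binding copine, was 145 times higher in CA3 (90.1 to 251), and 14 of its 17 UMIs in CA1 came from 1 nucleus. Tafa2, Rph3a, Smoc2 and Cpne4 were lower in CA1 than in dentate granule nuclei too, where Cpne4 was 48.3 times higher (30.0 to 83.1).

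Gene lists by function were compared with the mean of the 5 classes. In each list a gene counts as higher at 2 times or more, which held for 3.88% of all genes, and as lower at 0.5 times or less, which held for 15.3%. The median log2 ratio of all genes was -0.19. The lists are described by these counts and medians without a test, and genes under 20 CPM in CA1 and in every class were left out as not measured.

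Of 30 measured transcription factor genes of pyramidal neurons (35 in the list), 8 were higher, 7 were lower and 15 were neither, with a median log2 ratio of -0.05. Against the median of the classes 14 were higher and 4 lower. Higher than in each class were 2 genes, Meis2 and Pou3f3. Meis2, a TALE homeodomain factor, ran from 0 through 1.31 to 5.66 CP10K, and its 169 CPM (154 to 184) compare with 3.36 in dentate granule, 15.4 in CA3 and 84.3 in cortical excitatory nuclei. Pou3f3, a POU factor like Pou3f1, had 60.9 CPM (52.4 to 70.4) against 26.2 in dentate granule and 2.80 in CA3. Of the other POU genes, Pou3f2 and Pou3f4 were under the limit, with 22 and 6 UMIs in CA1.

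The bHLH factor Neurod6 had 225 CPM in CA1 and 259 in CA3, but 1.24 in dentate granule nuclei, and was found in 96.0% of CA1 nuclei. Bcl11b, a zinc finger factor also known as Ctip2, was shared by CA1 (371 CPM) and dentate granule nuclei (394) and low in CA3 (22.4). Zeb2 had 1423 CPM, Zbtb18 168 and Etv1 49.3, the last against 23.5 in dentate granule and 8.40 in CA3 nuclei. The factors of other neurons were low, namely Prox1 of granule neurons (2.66 CPM against 348 in dentate granule nuclei), Tshz2 (2.00 against 309.7 in cortical excitatory nuclei), Cux2 (2.33 against 239 in inhibitory nuclei) and Tbr1 (4.33 against 77.9 in cortical excitatory nuclei). Rorb had 26.3 CPM, with 34 of its 79 UMIs in 1 nucleus, and 6.74 CPM without the 4 members outside the CA1 clusters. Both values lay below the mean of the classes, which included 518 CPM in thalamic nuclei, while the median of the classes, 9.20 CPM, lay between them. Mef2c, an activity-regulated MADS factor, was at 104 CPM against 478 in dentate granule and 77.0 in CA3 nuclei.

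Of 13 measured nuclear receptor genes, 1 was higher and 6 were lower, with a median of -0.05. These counts changed to 5 higher and 3 lower against the median of the classes, and to 4 and 4 against their pooled sum. The gene higher than the mean was Nr3c2, the mineralocorticoid receptor that binds corticosterone in the hippocampus. It ran from 1.16 through 12.0 to 52.4 CP10K, so every CA1 nucleus carried it, and had 1291 CPM against 1252 in dentate granule, 857 in CA3 and 152 in cortical excitatory nuclei. Its relative Nr3c1, the glucocorticoid receptor, had 116 CPM against 97.2, 47.6 and 139 in the same classes. The retinoic acid receptor gene Rarb had 3.33 CPM, lower than in each class, and Rora (442 CPM) was lower than the mean, with 3867 in thalamic nuclei. Esrrg, Nr2f1 and Nr2f2 were the other lower genes besides Rorb.

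Ionotropic glutamate receptors of CA1 differed by family. Of 24 measured AMPA, NMDA and kainate receptor and auxiliary subunit genes, 3 were higher and 11 were lower, with a median of -0.77. Against the pooled sum of the classes, and against all other deep nuclei, none was 2 times higher. Grin2a, an NMDA receptor subunit gene of mature synapses, ran from 0 through 38.4 to 81.0 CP10K and had 3879 CPM against 3166 in dentate granule and 2223 in CA3. Grin2b and the obligatory subunit gene Grin1 were at 3013 and 478 CPM, with log2 ratios to the mean of 0.65 and 0.41. The AMPA receptor genes Gria1 (3736 CPM, log2 ratio 0.84), Gria2 (1804, 0.54) and Gria3 (845, 0.69) did not reach 2 times, and Gria4 was lower at 88.9 CPM (log2 ratio -2.89). Of the proteins that travel with AMPA receptors, Cacng8 (TARP γ-8) had 249 CPM, 219.9 in CA3 and 12.5 in thalamic nuclei, and the cornichon Cnih2 had 117 CPM against at most 84.4 in dentate granule nuclei. Shisa9 was low in CA1 (20.3 CPM) and in CA3 (7.0) and was at 695 in dentate granule nuclei.

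Kainate receptor genes were mostly lower in CA1. Grik4, whose protein is known for mossy fibre synapses on CA3, had 28.0 CPM (22.3 to 34.6) against 1343 in CA3 and 222 in dentate granule nuclei, and was lower than in each class. Grik3 had 6 UMIs, Grik1 10.7 CPM and Grik2 543 CPM against 1590.2 in dentate granule and 1172 in CA3. The auxiliary subunit gene Neto1 had 39.3 CPM against 539 in CA3. Grik5 did not differ by 2 times (131 CPM, log2 ratio 0.11).

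None of 7 metabotropic glutamate receptor genes was higher and 4 were lower, with a median of -1.69. Grm5, a postsynaptic receptor, stood at 2357 CPM against 1754 in dentate granule and 1840.5 in CA3 (log2 ratio 0.72). Grm2 had no UMI in CA1, against 40.2 CPM in dentate granule nuclei, 40.2-fold lower with the CA1 count set to the floor of 3. Grm8 had 11.7 CPM, lower than in each class, and Grm4 had 15 UMIs.

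Of 11 measured GABA-A receptor subunit genes none was higher and 1 was lower, with a median of -0.08. The lower gene was Gabrd, the δ subunit of extrasynaptic receptors, at 10.7 CPM against 58.8 in dentate granule nuclei. Gabra5, the α5 subunit of tonic inhibition in the hippocampus, had 170.5 CPM in CA1, 210.1 in CA3 and 127 in dentate granule nuclei.

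Potassium and HCN channel genes held both some of the highest and some of the lowest ratios. Of 34 measured genes, 8 were higher and 10 were lower, with a median of 0.12. Pex5l, whose protein TRIP8b is the auxiliary subunit that sets HCN channel trafficking in dendrites, ran from 0 through 19.5 to 42 CP10K and was found in 147 of 149 nuclei. Its 2082 CPM (2031 to 2134) were 4.01 times the level in thalamic nuclei (3.70 to 4.34) and compare with 161 in dentate granule and 144 in CA3. Hcn2 was at 38.0 CPM (log2 ratio 0.04) and Hcn4 had no UMI.

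A-type current genes included Kcnd2, which ran from 0 through 43.8 to 141 CP10K, and the auxiliary subunit genes Kcnip2 (127 CPM, and 126 in dentate granule nuclei) and Kcnab1 (956 against 480.3). Kcnip4 had 13472 CPM and Dpp6 774, with log2 ratios of 0.67 and -0.47. Kcnip1 (2 UMIs), Kcnd3 and Dpp10 were lower. The calcium-activated channel gene Kcnn2 (SK2) had 705 CPM against 128 in dentate granule and 366 in CA3, and Kcnn3 had 7.33. The channels of fast-spiking neurons were lower than the mean, Kcnc1 at 17.6 CPM against 283 and Kcnc2 at 264 against 1109 in inhibitory nuclei. Kcnh3 was higher (37.6 CPM) and Kcnh1 lower (49.6). The M-current genes Kcnq3 and Kcnq5 had log2 ratios of 0.55 and 0.53.

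Of 23 sodium and calcium channel and calcium store genes, 5 were higher and 3 were lower, with a median of 0.08. The higher genes were Cacna1i, the T-type channel Cav3.3 (79.6 CPM against 18.2 in dentate granule and 30.8 in CA3), Ryr3 (1410.2 against 266 and 964), Itpr2 (43.6 against 6.02 and 7.0, but below the pooled level of all other deep nuclei, glia included), Scn3b (198 against 139 and 101) and Cacna2d3 (1068 against 286 and 846). Ryr3 and Itpr2 encode calcium release channels of the endoplasmic reticulum. Cacna1c, the L-type channel Cav1.2, was lower at 271 CPM against 1211 and 1566 in the same classes, and Cacna2d2 had 1 UMI. The sodium channel genes Scn1a, Scn2a and Scn8a had log2 ratios of -0.77, -0.29 and 0.43.

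Of 28 measured postsynaptic plasticity genes, 6 were higher and 4 lower, with a median of 0.57, the highest of the 13 lists against the mean of the classes. With the median of the classes as reference it was 0.60, below the immediate early genes and the pyramidal transcription factors. Itpka, an inositol trisphosphate kinase that binds actin in spines, ran from 0 through 2.40 to 6.66 CP10K and was at 249 CPM against 139 in dentate granule and 44.8 in CA3. The protein kinase C gene Prkcb was found in every CA1 nucleus at 1366 CPM against 199 and 633, and Prkca was at 890.1 against 305 and 1018. Both stood higher in CA1 than in dentate granule nuclei. Rasgrf1, a Ras exchange factor that binds NMDA receptors, had 859.8 CPM, and the calcineurin subunit gene Ppp3r1 had 272. Camk2a, the main kinase of long-term potentiation, was at 1235 CPM with 1329 in dentate granule and 1076 in CA3 nuclei. Its relative Camk2d had 11 UMIs and was lower than in each class, and Camk2g, Dlg1 and the phosphodiesterase gene Pde4d were the other lower genes.

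Of 51 adhesion and axon guidance genes, 5 were higher and 18 lower, with a median of -0.32, and 5 were lower than in each class. The higher genes were Adgrl2, Epha6, Sema3e, Cdh10 and Slit3. Adgrl2, the adhesion receptor latrophilin 2, known at entorhinal synapses on CA1 distal dendrites, ran from 0 through 2.04 to 7.02 CP10K, at 227 CPM against 2.30 in dentate granule nuclei and no UMI in CA3. Its relatives Adgrl1 and Adgrl3 had log2 ratios of -0.05 and 0.80. Epha6, an ephrin receptor, ran from 0 through 65.0 to 156 CP10K, at 6882 CPM against 1161 in dentate granule and 4416 in CA3. Cdh10 had 438 CPM against 284 in CA3, while Sema3e was shared with CA3 (236 and 255 CPM) and Slit3 with dentate granule nuclei (1438 and 1785).

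Lower than in each class were Sema5a, Unc5d, Lrrtm4, Lrrtm3 and Cdh13. Lrrtm4, a synapse organiser of dentate granule neurons, had 80.3 CPM against 8360.2 in dentate granule and 613 in CA3 nuclei, and was found in 22.8% of CA1 nuclei. Lrrtm3 had 8.66 CPM against 167, Lrrtm2 had 16.3, below the mean and above the median of the classes, and Lrrtm1 had 57.6, a log2 ratio of -0.46. Cdh13 had 18.6 CPM, of which 30 of 56 UMIs were in the nucleus described above, and Cdh9, a cadherin of dentate granule and CA3 neurons, had 17.3 CPM against 648 and 504. Ntng1 was at 15.0 CPM against 3522 in thalamic and 673 in dentate granule nuclei.

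Of 25 measured receptors for modulators (37 in the list), 1 was higher and 11 lower, with a median of -0.71. Against the median of the classes 5 were higher and 9 lower, and the median log2 ratio was 0.086. The higher gene was Chrm3, the M3 muscarinic receptor, which ran from 0 through 17.3 to 39.1 CP10K and had 1822 CPM (1774 to 1871) against 1210.2 in CA3 and 5.13 in dentate granule nuclei. After thinning it was found in 93.3% of CA1, 90.9% of CA3 and 2.46% of dentate granule nuclei. Chrm1 had 98.9 CPM against 113 in dentate granule and 64.4 in CA3, and Chrm2 had 6 UMIs. Among monoamine receptors Htr1f had 198 CPM against 125 in CA3 and 3.19 in dentate granule nuclei, and Htr4 had 91.2 against 341 in dentate granule nuclei. Adra1b, Adra2a and Htr7 had 1 UMI each. The µ opioid receptor gene Oprm1 had 10 UMIs, 3.33 CPM against 169 in dentate granule nuclei, and the cannabinoid receptor gene Cnr1 had 46.3 CPM against 371 in inhibitory nuclei.

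Of 21 measured neuropeptide and secreted factor genes (28 in the list), 5 were higher and 11 lower, with a median of -1.07. Against the median of the classes 9 were higher and 7 lower, with a median log2 ratio of -0.32, against their pooled sum 5 and 5, and with a limit of 50 CPM in place of 20 the higher genes were 2. Lefty1, an antagonist of nodal signalling, had 83 UMIs in 58 CA1 nuclei (27.6 CPM, 22.0 to 34.3), 1 UMI in dentate granule nuclei and none in the other 4 classes, a ratio of 156 (27.3 to 6242). Ccn3, a matricellular protein, had 28.3 CPM and was 3.36 times the level in cortical excitatory nuclei (1.26 to 12.6). Dkk3, a Dickkopf family protein, was found in 97.3% of CA1 nuclei at 229 CPM, with 182 in CA3 and 6.55 in dentate granule nuclei. The peptide gene Cck had 394 CPM against 262 in thalamic and 258 in CA3 nuclei, and Penk had 16.6 CPM against 23.4 in dentate granule nuclei. Npy, Sst and Vip had 2 UMIs each and Tac1 none. Bdnf did not differ by 2 times from the mean (59.6 CPM, log2 ratio 0.29) and was at 101 in dentate granule and 115 in CA3. The neurotrophin gene Ntf3 of dentate granule neurons had 3 UMIs.

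Of 12 measured immediate early genes, which neurons induce within minutes of firing, 1 was higher and 2 were lower, with a median of 0.26. Against the median of the classes 7 were higher and 1 lower. Arc, whose protein regulates AMPA receptor endocytosis, reached 4.45 CP10K with a median of 0 and was found in 46.3% of CA1 nuclei, at 45.6 CPM against 30.8 in CA3, 54.8 in cortical excitatory and 1.59 in dentate granule nuclei. Nr4a1 had 89.6 CPM and Egr1 58.6, against 2.65 and 7.79 in dentate granule nuclei, and Fos was low everywhere, at 15.0 CPM in CA1. Jun was lower at 3.00 CPM against 85.1 in dentate granule nuclei.

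None of 23 measured synaptic vesicle and release genes was higher and 13 were lower, with a median of -1.18, the second lowest among the lists after the metabotropic receptors. Compared with the pooled sum of the classes, 1 was higher and 7 were lower. Several of the 13 are the transporters or isoforms of other neurons. Slc32a1 of inhibitory neurons had 1 UMI in CA1 and Slc17a6 of thalamic neurons 14, both below the mean of the classes. Slc17a6 was above the median of the classes, while the 1 UMI of Slc32a1, under the floor of 3, cannot place it. Slc17a8 and Cplx3 had no UMI. Others are general release genes, such as Rims1 (572 CPM, and 1150.1 to 1972 in the other classes), Rims2 (346), Snap25 (410.2 against at least 594), Cplx2 (77.3) and Sv2a (75.3). Syt13 was lower than in each class at 28.6 CPM. The vesicular glutamate transporter gene of cortical neurons, Slc17a7, had 242 CPM, 399 in CA3 and 236 in dentate granule nuclei, and Sv2b was at 288 CPM in CA1 and 441 in CA3 but 1.24 in dentate granule nuclei.

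**Figure D5:**
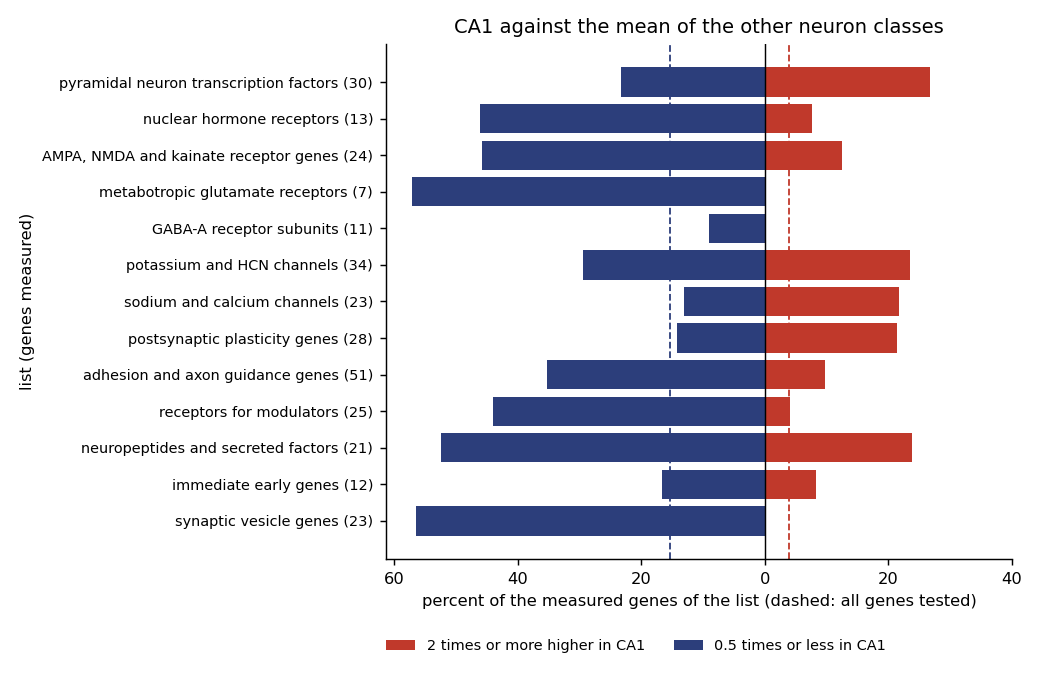
Bars to the right are the percent of measured genes in each of 13 lists that were 2 times or more higher in CA1 than the mean of the 5 other neuron classes, and bars to the left the percent at 0.5 times or less, with the number of genes in brackets. Dashed lines are the shares over all genes, 3.88% higher and 15.3% lower; metabotropic receptor, GABA-A receptor and synaptic vesicle genes have no bar to the right.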

How the data were processed

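Nuclei of 1 adult mouse hippocampus section were profiled by droplet snRNA-seq. Per the file headers the authors made the deposited counts (whole UMIs per gene and barcode, not normalized) with Cell Ranger 6.1.2, and their methods state the mouse reference mm10 with intronic reads counted. Their methods name no correction for free RNA in this library. Spatial positions and, beyond the barcodes of the embryonic library, the other libraries were not analysed here. No count column of another sample was used.

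Nuclei with under 5% mitochondrial UMIs were clustered in Seurat 5.3.0 (R 4.3.3; counts scaled to 10000 per nucleus, 2000 variable genes, 30 components, resolution 0.8). A cluster took the name of a marker list when at least 4 of its genes were in at least 10% of its nuclei and 2 times higher there, unless its nuclei were shallow. Doublets were marked with Scrublet in scanpy 1.11.5, whose automatic limit marked 0.421% of barcodes, so nuclei were marked from the top score down until the count equalled that of a doublet rate of 0.8% for each 1000 nuclei, and none was removed.

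UMIs were summed per class and divided by the class total. Classes were compared by ratios of CPM in genes of at least 20 CPM, with exact Poisson, conditional binomial and Clopper-Pearson intervals at 95%, computed in Python 3.11.15 with numpy 2.4.6 and scipy 1.17.1. A count of 0 was set to 3 counts over the group before a ratio. With 1 library no p-value was computed. The scripts were tested on simulated counts.

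The text names the 6 rule genes, the 15 highest and 10 lowest ratios to every class (the higher ones in genes found in at least 50% of CA1 nuclei), the 8 and 5 highest and lowest against dentate granule and CA3, and members of the lists. The members, the lists and this rule were chosen with earlier results of these data known. Alternatives covered the rule's limits, scaling, clustering, doublets and the CPM limit. Some genes of the lists are counted and not reported here by name.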

Additional observations from a re-analysis of the deposited data

Results flagged for a closer look

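One signal of CA1 genes lay outside the 149 nuclei and the classes compared. A cluster of 201 nuclei, left unnamed because its median of 822 UMIs was well below that of the library, had the 6 rule genes at a summed 767 CPM (190 UMIs, 662 to 884 CPM), where 3 counts would be 12.1 CPM. This cluster was picked because 4 of the 6 rule genes, which are also the CA1 marker list, were higher there. Its high sum therefore follows from that choice. Compared with it were 498 other barcodes under 5000 UMIs. Barcodes in the clusters named CA1 or with 5% or more mitochondrial UMIs were left out. These 498 had 187 CPM (230 UMIs, 163 to 212). In the cluster of 201 nuclei, 88 carried at least 1 rule gene and 6 carried at least 4. Its median mitochondrial share was 1.07% against 0.279%. In all, 3 nuclei reached 5000 UMIs. All but these 3 were too shallow for the rule, and whether the others are CA1 nuclei of low depth was not tested.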

How the results depend on the processing

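Shifts of the rule left 104 (at least 5 of 6 genes) to 175 nuclei (at least 3), with 156 at 3000 UMIs, 140 at 10000, 138 with no UMI of the excluded genes and 148 without marked doublets. The counts of genes depended most on the limit of 20 CPM. At 50 CPM, 253 genes were higher and 877 lower than the mean, and 58 were higher than each class. With no limit beyond 1 UMI these were 4747, 3962 and 319, and 269 were lower than each class. Further references for the mean were chosen after seeing the data. Against the median of the classes 701 genes were higher, and against their pooled sum 831 were lower. Of the 383 higher genes, 362 were also higher against the median, 269 against the pooled sum and 246 against all other deep nuclei. Some genes lower than the mean were above the median of the classes, at log2 ratios of 0.93 (Adra1a), 0.36 (Cacna1g), 0.34 (Dusp1), 2.13 (Grin2c), 0.66 (Hcrtr2), 0.30 (Lrrtm2), 1.52 (Rorb), 1.74 (Slc17a6) and 0.91 (Slc32a1). Without the 4 members outside the CA1 clusters, Rorb (6.74 CPM) and Grin2c (0.337 CPM) lay below the median of the classes. The value of Slc32a1 rests on 1 UMI in CA1, under the floor of 3 counts. Fgf1 turned to 0.056 against the pooled classes and Itpr2 to -0.11 against all other deep nuclei. Of the 182 called genes among the 341 named or listed, 177 to 182 stayed 2 times apart in the same direction under the alternatives to the rule, scaling, clustering and doublets. Other references kept fewer: 153 of 178 against the median of the classes, 150 of 182 against their pooled sum and 147 of 182 against all other deep nuclei. No paired analysis was possible because there is 1 library. Small classes limit depth: 3 counts are 0.999 CPM in CA1 and 6.32 CPM in cortical excitatory nuclei.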

Other observations

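Gm47448, a long non-coding RNA found in too few nuclei for the named set (44.3% of CA1 nuclei), had 130 UMIs in CA1, 1 in dentate granule nuclei and none in the other neuron classes, and it was chosen after its values were seen. Some receptor genes of the modulator list were under the limit of 20 CPM in CA1 and every class and were also singled out after the values were seen. Sstr4, a somatostatin receptor, had 17 UMIs in CA1, 2 in dentate granule nuclei and 0 in CA3. Htr1a and Htr1b, inhibitory serotonin receptors, had 38 and 55 UMIs in CA1, or 12.7 and 18.3 CPM, against 1.95 and 0 CPM in dentate granule nuclei. Rgs14, the signalling scaffold of the CA2 list described above, had 47 UMIs in CA1 (15.7 CPM) and 68 in dentate granule nuclei (12.0 CPM).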
